A study of Mus musculus with 6 samples.

Results

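Glycolysis, glucose transport and hypoxia genes were examined in pTreg cells, the regulatory T cells that arise from naive CD4+ T cells outside the thymus. The 38 genes were taken by symbol for their place in the pathway, with earlier results of these data known. They comprise 4 glucose transporters, 11 genes of upper glycolysis, 5 of lower glycolysis, 4 of lactate metabolism and transport, 3 that govern the entry of pyruvate into mitochondria, 4 of the pentose phosphate pathway, 5 of oxygen sensing and hypoxia and 2 of glycogen. Of these, 34 had a probe of that name on the Illumina MouseWG 6v2 bead array and 27 were bright enough to test, among 9593 tested genes in all.

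The study asked which genes Blimp1, a transcriptional regulator encoded by Prdm1 that can repress or activate genes, controls in pTreg and effector T cells. The pTreg arrays are described here. Arrays labelled Ctrl hold cells of Prdm1+/+ CD4-Cre+ mice and arrays labelled CKO hold cells of C57BL/6 Prdm1 flox/flox CD4-Cre+ mice, with 3 arrays of each. Both genotypes carried the Cre transgene, which deletes floxed DNA in all T cells and not in Treg cells alone, and a Foxp3-GFP reporter. Naive cells pooled from lymph nodes and spleens of adult donors were transferred together into RAG1-deficient mice, which have no mature T or B cells of their own, and CD4+ Foxp3-GFP+ cells were sorted weeks later. Ctrl cells carried Thy1.1 and CKO cells Thy1.2, so genotype and the allele at Thy1 cannot be told apart. One label field calls the cells iTreg and another peripheral Treg. The letters P+I, which the labels do not explain, stand in those of replicates 2 and 3 and not in those of replicate 1. The paper's methods name the stimulants PMA and ionomycin for other assays and no stimulant for the arrays.

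Values are normalized fluorescence intensities in arbitrary units. Background was set on each array at the 95th percentile of the probes for olfactory and vomeronasal receptors, and lay between 6.18 and 9.55. Each gene was read from its brightest probe. Prdm1 gave intensities of 18.9, 50.9 and 49.2 on the Ctrl arrays and of 561, 341 and 704 on the arrays labelled CKO. Blimp1 is known to repress its own gene. The sources used here do not say where the probe lies relative to the deleted exons. Its level therefore checks nothing about the deletion, and every direction below rests on the labels. All 11 T cell and Treg markers with a probe were above background on all 6 arrays, and Foxp3, on which the cells were sorted, averaged 278 ± 178 (SD, n = 3) on the Ctrl and 271 ± 142 (SD, n = 3) on the CKO arrays. A second Foxp3 probe gave 67.9, 35.7 and 48.6 in Ctrl and 30.9, 19.0 and 37.8 in CKO cells (log2 -0.80, SE 0.35). The brightest probe gave a log2 change of 0.03 (SE 0.51), and its 95% interval of -1.15 to 1.22 held the estimate of the second. Of 11 myeloid markers with a probe, Itgam and Adgre1 were above background on no array and 9 on 2 or more, and all 9 had lower estimates in CKO cells with overlapping groups. The summed myeloid intensity was 29519, 2869 and 34502 on Ctrl replicates 1, 2 and 3 and 14139, 2189 and 24178 on the CKO arrays, lowest by far in replicate 2. The summed intensity of 5 erythroid markers with a probe lay between 551 and 1901 and was also lowest in replicate 2. Of 6 CD8 T and NK markers, Cd8a, Ncr1 and Klrb1c were above background on no array and 3 on 2 or more, among them Cd8b1 at 544 to 1031 on all arrays. Of 4 B cell markers with a probe, Cd22 was above background on no array and 2 on 2 or more, and of 6 epithelial markers, Epcam and Krt19 on none and 4 on 2 or more. The part of these cells in the results was not tested. In bulk RNA, fewer cells of a type and less RNA per cell cannot be told apart. The small number of arrays, 3 in each group, limits the precision.

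Glucose enters T cells through transporters of the Slc2a (GLUT) family and is phosphorylated by hexokinases. Phosphofructokinase then commits it to glycolysis, and lower glycolysis yields pyruvate, which is either reduced to lactate or oxidised in mitochondria. Activated effector T cells are known for a high glycolytic rate driven by Myc and by the hypoxia factor HIF-1, whereas Treg cells are known to depend more on oxidative metabolism.

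Of the 27 tested genes, Slc2a6 rose and Ppp1r3b fell in cells labelled CKO. These 2 genes had an adjusted p under 0.05 in limma, against 0.271% of all tested genes. At the study's own thresholds, an unadjusted p under 0.05 together with a difference of 1.5-fold or more, 5 members were higher (Slc2a6, Pfkl, Pfkp, Tpi1 and Pgam1), against 3.05% of all tested genes, and 2 were lower (Slc2a3 and Ppp1r3b), against 4.36%. With each array scaled by the median of its values above background, in place of quantile normalization, 4 were higher and 3 lower. Hk1 joined and Pfkp left. With the replicate number as a block, which pairs the Ctrl and CKO arrays, 4 members passed an adjusted p of 0.05, against 1.96% of all tested genes, and Pfkl and Slc2a3 were the added ones. With values under background raised to it, all 3 CKO arrays lay above all 3 Ctrl arrays for 7 members, against 5.94% of all tested genes, and below them for 4, against 7.09%. The 7 were Slc2a6, Pfkl, Pfkm, Tpi1, Gapdh, Pgam1 and Pdk3, and the 4 were Slc2a3, Hk1, Ppp1r3b and Aldoc. Aldoc counts among them only through the raised values, as its measured intensities overlapped and lay near background. The median log2 fold change of the 27 genes was 0.16, beside 0.018 for all tested genes. Pairs 1, 2 and 3 gave medians of 0.25, 0.10 and 0.19 for the 27 genes, beside 0.074, 0.041 and -0.066 for all tested genes. As the genes were chosen with earlier results of these data known, the shares and medians above give no measure of enrichment.

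**Figure D1:**
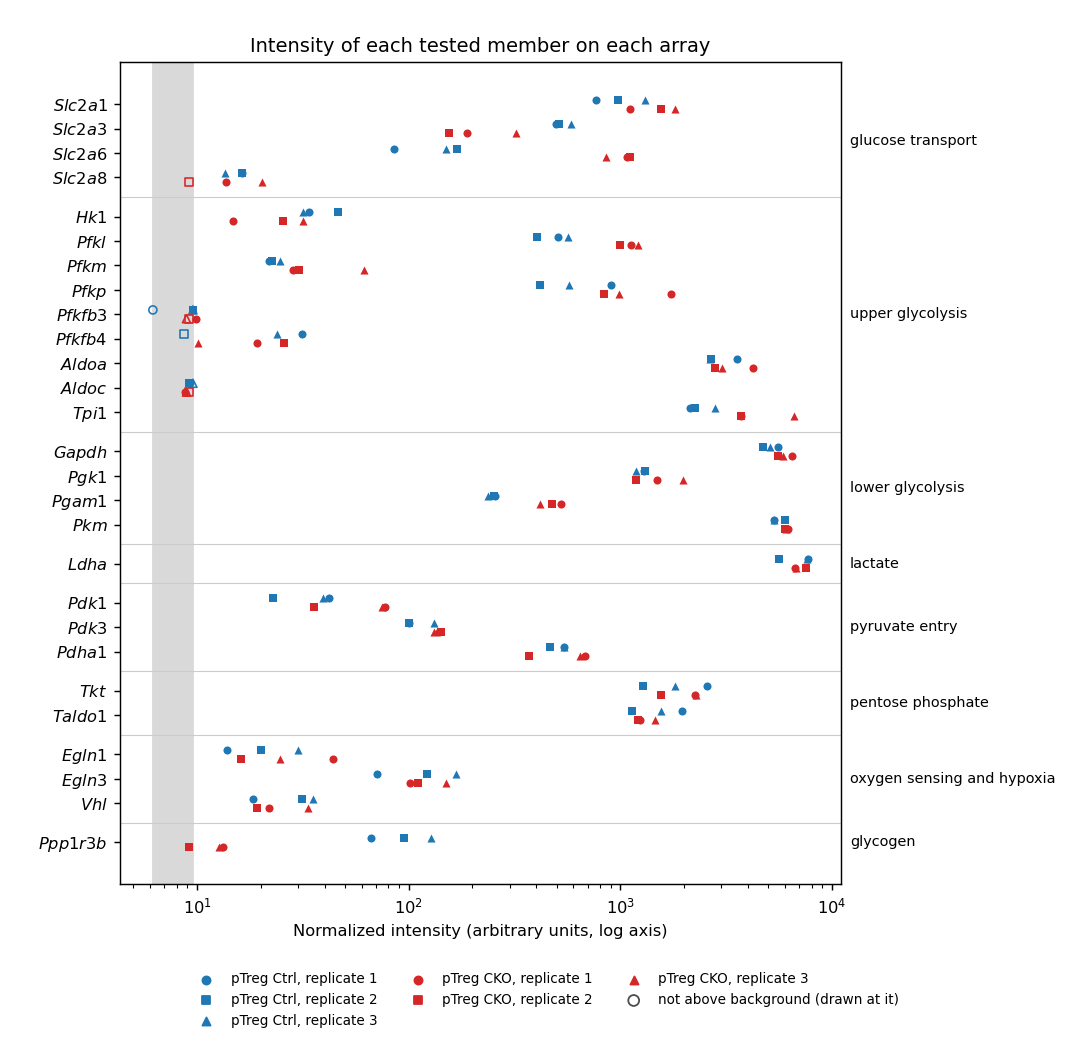
Normalized intensity (arbitrary units, log axis) of each of the 27 tested genes on each array, by pathway step. Blue marks Ctrl and red CKO, and circles, squares and triangles are replicates 1, 2 and 3. The grey band spans the background of the 6 arrays (6.18 to 9.55), and open symbols are values not above it. Slc2a6 and Pfkl lie to the right on all CKO arrays, and Slc2a3 and Ppp1r3b to the left.

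Among the glucose transporters, Slc2a6 rose in cells labelled CKO while Slc2a3 was lower at the study's thresholds. Slc2a6 encodes GLUT6, a transporter found mainly on intracellular membranes. Its intensities were 85.0, 169 and 149 in Ctrl replicates 1, 2 and 3 and 1075, 1108 and 858 in the CKO replicates. The lowest CKO array stood far above the highest Ctrl array. It rose 7.82-fold (95% interval 4.80 to 12.8, adjusted p = 0.0227 in limma), and the log2 change was 3.66, 2.72 and 2.52 in pairs 1, 2 and 3. The summed myeloid intensity was lowest in pair 2, and its part in this result was not tested. Blocking on the slide gave an adjusted p of 0.0431, and on the replicate number 0.00690. The adjusted p was 0.0590 without Ctrl replicate 1, 0.0612 without Ctrl replicate 3, 0.121, 0.0910 and 0.0657 without CKO replicates 1, 2 and 3, and 0.0419 without Ctrl replicate 2, while the log2 change lay between 2.62 and 3.19 over these and all other alternatives.

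The promoter of Slc2a6 is shown because this gene had the largest increase among the tested members. Promoters were the 250 bases before RefSeq starts in GRCm38.p6, which the table used here holds for 36 of the 38 members, all but Slc2a3 and Ppp1r3b. They were searched on both strands for GAAAG, the core of the site that Blimp1 is known to bind, and for ACGTG, the core of the hypoxia response element, which share no position in the windows printed here. GAAAG stood in 51.5% of all 32851 windows and in 24 (47.1%) of 51 windows of the members. ACGTG stood in 16.6% of all windows and in 19 (37.3%) of those of the members. The Slc2a6 window, on the minus strand at chr2:27027999-27028248, holds GAAAG once, beginning 176 bases before the start (capitals), and no ACGTG. A match of letters is a description and shows no binding.
Slc2a6: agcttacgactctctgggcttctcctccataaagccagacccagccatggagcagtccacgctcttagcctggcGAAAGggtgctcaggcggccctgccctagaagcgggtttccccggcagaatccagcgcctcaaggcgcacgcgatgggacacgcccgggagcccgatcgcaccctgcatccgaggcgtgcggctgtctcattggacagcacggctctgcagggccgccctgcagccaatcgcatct

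Slc2a3, which encodes GLUT3, the high-affinity transporter of neurons and lymphocytes, differed in the other direction. Its intensities were 498, 510.0 and 584 in Ctrl and 189, 156 and 321 in CKO cells. The groups did not overlap, and CKO was 2.50-fold lower (log2 -1.32, SE 0.30). Its adjusted p was 0.182 in limma and 0.0405 with the replicate block, so Slc2a3 passed in the paired fit and not in the reported one. The pairs gave log2 changes of -1.40, -1.71 and -0.86. The part of myeloid RNA in this difference was not tested either. Over all alternatives the log2 change stayed between -1.63 and -1.10.

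Slc2a1, which encodes GLUT1, the main transporter induced when T cells are activated, gave 769, 978 and 1312 in Ctrl and 1108, 1557 and 1806 in CKO cells. Each CKO array exceeded its paired Ctrl array (log2 0.53, 0.67 and 0.46), but the groups overlapped, and the log2 change of 0.55 (95% interval -0.13 to 1.23) had an adjusted p of 0.736. Slc2a8, which encodes the intracellular transporter GLUT8, was dim, between 13.5 and 16.4 in Ctrl and between 6.94 and 20.2 in CKO cells, with a log2 change of -0.17 (SE 0.31). Both are thus undecided at this precision. Of 12 other glucose and lactate carriers 6 were tested, and 0 met the study's thresholds.

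**Figure D2:**
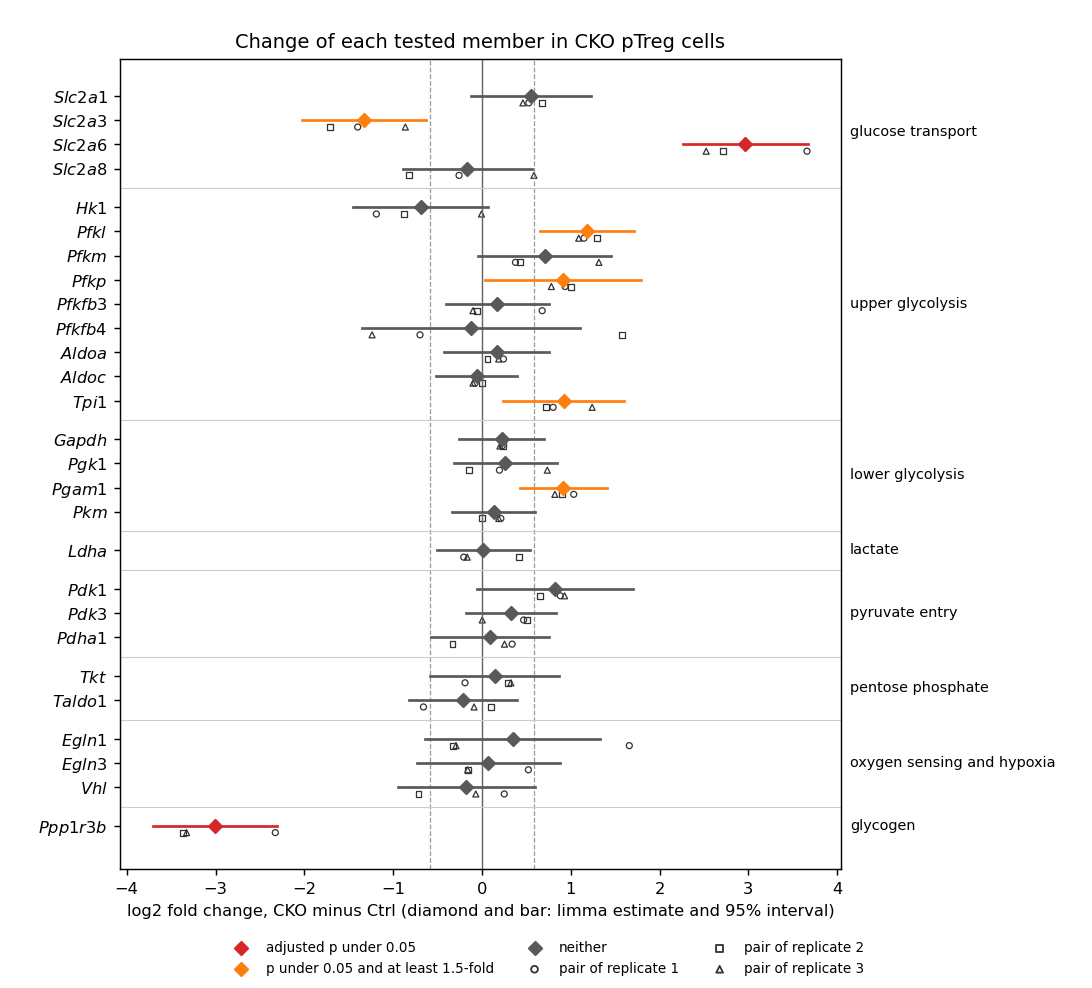
log2 fold change (CKO minus Ctrl) of each tested gene, by pathway step. Diamonds and bars are limma estimates with 95% intervals, small open symbols are the 3 pairs, and dashed lines mark 1.5-fold. Slc2a6 and Ppp1r3b (red) pass an adjusted p of 0.05, and 5 more genes (orange) meet the study's thresholds. Glucose transport holds the widest spread, from -1.32 to 2.97.

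In upper glycolysis, 3 of 9 tested genes met the study's thresholds, all of them higher in cells labelled CKO. Of these, 2 encode subunits of phosphofructokinase, the committing enzyme. Pfkl, the liver-type subunit, gave 505, 405 and 568 in Ctrl and 1119.9, 997 and 1209.7 in CKO cells, with no overlap. It was 2.27-fold higher (95% interval 1.57 to 3.27), with log2 changes of 1.15, 1.30 and 1.09 in the 3 pairs. The adjusted p was 0.130 in limma and 0.0334 with the replicate block. A second Pfkl probe was above background on 2 of 6 arrays and gave a log2 change of 0.28 (SE 0.25). The Pfkl window, at chr10:78009808-78010057 on the minus strand, is shown beside that of Slc2a6 as the other of the 2 higher genes that passed the paired fit. It holds GAAAG once, as CTTTC on the strand printed (capitals), beginning 86 bases before the start.
Pfkl: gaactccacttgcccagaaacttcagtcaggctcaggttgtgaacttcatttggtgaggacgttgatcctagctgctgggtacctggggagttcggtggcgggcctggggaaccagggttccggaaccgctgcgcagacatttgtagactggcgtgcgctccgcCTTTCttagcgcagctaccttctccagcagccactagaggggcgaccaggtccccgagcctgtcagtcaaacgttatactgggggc

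Pfkp, the platelet-type subunit, gave 902, 415 and 572 in Ctrl and 1726, 833 and 984 in CKO cells. The groups overlapped, with replicate 1 brightest in both, while every pair was higher in CKO (log2 0.94, 1.01 and 0.78). Its log2 change was 0.91 (SE 0.38), with an unadjusted p of 0.0444 and an adjusted p of 0.587 in limma. A second probe gave a log2 change of 0.76 (SE 0.42). The unadjusted p was 0.153 without CKO replicate 1, 0.149 without Ctrl replicate 2, 0.0921 without Ctrl replicate 3 and 0.0591 without CKO replicate 3, so Pfkp was the least stable of the 7 genes. Pfkm, the muscle-type subunit, gave 21.8, 22.6 and 24.7 in Ctrl and 28.4, 30.3 and 61.5 in CKO cells. Its groups did not overlap, but its log2 change of 0.71 (SE 0.32) had an unadjusted p of 0.0618, and of 0.0231 with the replicate block. Its other probes gave -0.03 and 0.41.

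Tpi1, triosephosphate isomerase, which interconverts the triose products of aldolase, was the other higher gene of upper glycolysis. It gave 2139.7, 2247 and 2806 in Ctrl and 3729, 3694 and 6632 in CKO cells, and every CKO array was above every Ctrl array. Tpi1 was 1.89-fold higher (95% interval 1.18 to 3.03), with an unadjusted p of 0.0142, an adjusted p of 0.376 in limma and 0.0752 with the replicate block. Its other probes gave log2 changes of 0.84 and 0.51, beside 0.92 on the brightest.

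The other tested genes of upper glycolysis did not meet the study's thresholds in the reported fit. Hk1, a hexokinase that traps glucose in the cell, gave 33.7, 46.5 and 31.6 in Ctrl and 14.8, 25.4 and 31.5 in CKO cells. Its groups only just failed to overlap, and replicate 3 was nearly equal, for a log2 change of -0.69 (SE 0.33, unadjusted p = 0.0693, and 0.0339 with the replicate block). Aldoa, the main aldolase, had intensities of 2654 to 3573 in Ctrl and 2787 to 4226 in CKO cells and a log2 change of 0.16 (SE 0.26). Aldoc, the brain aldolase, and Pfkfb3, which makes the activator of phosphofructokinase, were at or near background on all arrays, so their changes of -0.06 and 0.17 carry little. Pfkfb4, a related enzyme, ranged from 1.32 to 31.2 in Ctrl cells alone, and its pairs gave -0.70, 1.57 and -1.24 in no common direction.

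**Figure D3:**
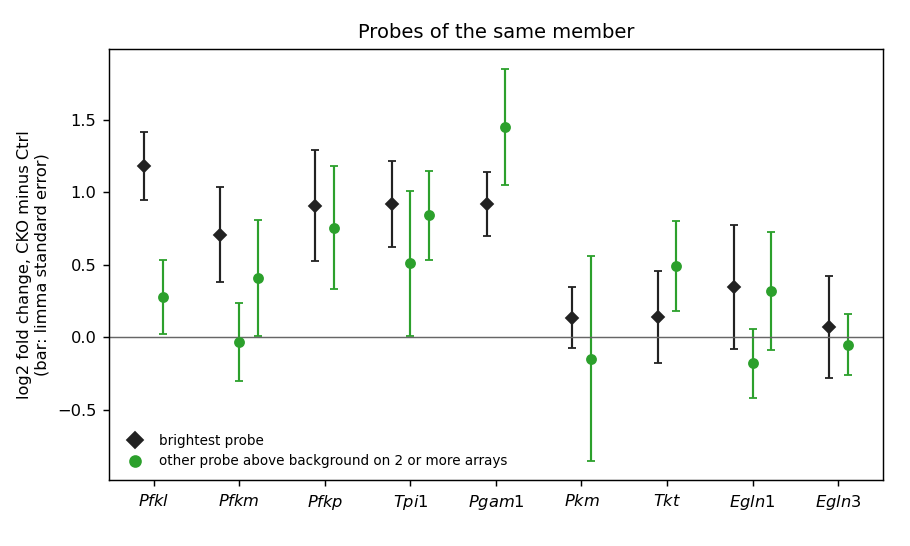
log2 fold change (CKO minus Ctrl, bars are limma standard errors) on each probe above background on at least 2 arrays, for the 9 tested genes with more than 1 such probe (21 probes). Black diamonds are the brightest probe and green circles the others. The probes of Pfkp, Tpi1 and Pgam1 lie above 0 throughout, while the second probe of Pfkl, above background on 2 arrays, lies at 0.28.

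In lower glycolysis, the study's thresholds were met by Pgam1, higher in CKO cells, and not by Gapdh, Pgk1 or Pkm. Pgam1, phosphoglycerate mutase, gave 255, 253 and 236 in Ctrl and 523, 473 and 417 in CKO cells. The Ctrl arrays were nearly equal, at 248 ± 10.7 (SD, n = 3), and the lowest CKO array was well above them. Pgam1 was 1.89-fold higher (95% interval 1.35 to 2.65), with an unadjusted p of 0.00248, an adjusted p of 0.183 in limma and 0.0623 with the replicate block. A second, dimmer probe gave a log2 change of 1.45 (SE 0.40), beside 0.92 (SE 0.21) on the brightest. The Pgam1 window, at chr19:41911621-41911870 on the plus strand, is shown because it alone, among the windows of the 5 higher genes, holds the hypoxia core. It holds ACGTG once (capitals), beginning 114 bases before the start, and no GAAAG. The windows of Tpi1 and Pfkp hold neither.
Pgam1: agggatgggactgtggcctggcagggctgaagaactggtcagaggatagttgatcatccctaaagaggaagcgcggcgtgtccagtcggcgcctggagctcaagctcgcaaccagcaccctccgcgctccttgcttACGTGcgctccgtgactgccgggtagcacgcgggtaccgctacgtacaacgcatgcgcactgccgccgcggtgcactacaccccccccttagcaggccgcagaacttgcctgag

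Gapdh, the dehydrogenase that is often used as a reference gene, averaged 5123 ± 404 (SD, n = 3) on the Ctrl and 5977 ± 456 (SD, n = 3) on the CKO arrays. All CKO arrays of Gapdh were above all Ctrl arrays, yet the log2 change was 0.22 (95% interval -0.26 to 0.70). Pgk1, the first ATP-forming enzyme of the pathway, had intensities of 1181 to 1305 in Ctrl and 1183 to 1968 in CKO cells, with a log2 change of 0.26 (SE 0.25). Pkm, pyruvate kinase, had intensities of 5326 to 6019 in Ctrl and 6019 to 6172 in CKO cells, a log2 change of 0.13 (95% interval -0.33 to 0.60) and a second probe at -0.15 (SE 0.70), and its splice forms were not told apart here. As folds, the 95% interval was 0.837 to 1.63 for Gapdh, 0.803 to 1.80 for Pgk1 and 0.794 to 1.52 for Pkm, so larger changes lie outside these intervals.

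Ldha, the lactate dehydrogenase subunit that favours lactate formation, did not separate the groups. It gave 7706, 5610.1 and 7584 in Ctrl and 6684, 7515 and 6759 in CKO cells, a log2 change of 0.02 (95% interval -0.51 to 0.54). Of its pairs, 1 was higher and 2 were lower in CKO. Ldhb and the lactate transporters Slc16a1 and Slc16a3 were above background on at most 1 array and were not tested. The 1 Ldhb probe is annotated to a cDNA clone and not to a RefSeq transcript, so it does not settle the level of Ldhb.

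The genes at the entry of pyruvate into mitochondria all had positive estimates, and none met the thresholds. Pdk1, a kinase that switches pyruvate dehydrogenase off and a known HIF-1 target, gave 41.9, 22.8 and 39.1 in Ctrl and 77.2, 35.8 and 74.6 in CKO cells. Its groups overlapped, while each pair was higher in CKO (log2 0.88, 0.65 and 0.93), giving 0.82 (SE 0.38) with an unadjusted p of 0.0635. The replicate block brought the unadjusted p to 0.00319 and the adjusted p to 0.0833. Pdk3, another such kinase, had intensities of 100.1 to 131 in Ctrl and 131 to 142 in CKO cells and a log2 change of 0.33 (SE 0.22). Pdha1, the catalytic subunit that these kinases phosphorylate, had intensities of 465 to 539.8 in Ctrl and 369 to 683 in CKO cells and a log2 change of 0.09 (SE 0.29). Neither difference passed the test. Beyond this step, 17 of 20 listed genes of the tricarboxylic acid cycle were tested and 0 met the study's thresholds, with a median log2 change of 0.024.

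In the pentose phosphate pathway, which branches from glycolysis and supplies NADPH and ribose, Tkt (transketolase) and Taldo1 (transaldolase) were tested. Tkt had intensities of 1275 to 2561 in Ctrl and 1564 to 2270.4 in CKO cells and a log2 change of 0.14 (SE 0.31). Taldo1 had intensities of 1131 to 1953 in Ctrl and 1216 to 1460.3 in CKO cells and a log2 change of -0.21 (SE 0.26). Neither difference was larger than the spread between arrays. The 1 probe named for Pgd was above background on no array. It is annotated to a cDNA clone and not to a RefSeq transcript, so it does not settle the level of Pgd.

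Of the oxygen-sensing genes, Egln1, Egln3 and Vhl overlapped between groups. Egln1 and Egln3 are prolyl hydroxylases that mark HIF-1 for destruction and are themselves known HIF-1 targets, and Vhl recognises the marked form. Egln3 gave 70.5, 123 and 167 in Ctrl and 101, 110.0 and 149 in CKO cells, a log2 change of 0.07 (95% interval -0.74 to 0.87). Egln1 gave 13.9, 20.1 and 30.1 in Ctrl and 43.8, 16.1 and 24.6 in CKO cells, a log2 change of 0.35 (SE 0.43). Its pair of replicate 1 was higher (1.66) and the others lower (-0.32 and -0.29). Vhl had intensities of 18.4 to 35.2 in Ctrl and 19.2 to 33.6 in CKO cells and a log2 change of -0.18 (SE 0.33). The hypoxia genes Vegfa, a vascular growth factor, and Bnip3, a mitophagy receptor, were not tested, with intensities of at most 14.2 and 2.02 on any array. Of 25 other hypoxia response genes, 17 were tested, with 11 estimates higher, 6 lower and a median log2 change of 0.28. The study's thresholds were met by 0 in the upward direction, against 3.05% of all tested genes, and by 2 in the downward direction, against 4.36%. The 2 lower genes were Mxi1, a Myc antagonist, at log2 -0.76 (SE 0.29), and Plin2, a lipid droplet protein. Mxi1 gave 16.1, 19.9 and 25.0 in Ctrl and 16.3, 10.1 and 9.95 in CKO cells. Its groups overlapped, and CKO replicates 2 and 3 were just above their backgrounds of 9.16 and 8.90. Plin2 was above background on 2 Ctrl arrays and on no CKO array, so it was tested only through its Ctrl arrays. Its Ctrl intensities of 26.7, 4.05 and 29.5 were lowest in replicate 2 like the summed myeloid intensity, whose part in this value was not tested.

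The glycogen gene Ppp1r3b fell. It encodes a subunit that directs protein phosphatase 1 to glycogen and so favours glycogen synthesis. Its intensities were 66.5, 95.1 and 128 in Ctrl and 13.3, 9.20 and 12.7 in CKO cells. The CKO values were just above the backgrounds of those arrays (7.52, 9.16 and 8.90), and the groups were far apart. Ppp1r3b fell by 3.01 on the log2 scale (95% interval -3.71 to -2.31), 8.04-fold, with an adjusted p of 0.0227 in limma. Blocking on the slide gave an adjusted p of 0.0456, and on the replicate number 0.00669. With an offset of 16 in place of the background floor the change was -1.99, where the CKO level lies close to background. The pairs gave -2.33, -3.37 and -3.33. In the pair of replicate 2, which had the least myeloid signal, the CKO value was barely above background, so the size of that drop rests on the background level. The part of myeloid RNA in this result was not tested. The adjusted p was 0.0590 without Ctrl replicate 1, 0.0612 without Ctrl replicate 3 and 0.121, 0.0910 and 0.0657 without CKO replicates 1, 2 and 3, and it was 0.0475 without Ctrl replicate 2. A second probe was above background on 1 array and was not used. Gys1, glycogen synthase, was above background on at most 1 array, and of 24 other glycogen and galactose genes 15 were tested and 0 met the study's thresholds.

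**Figure D4:**
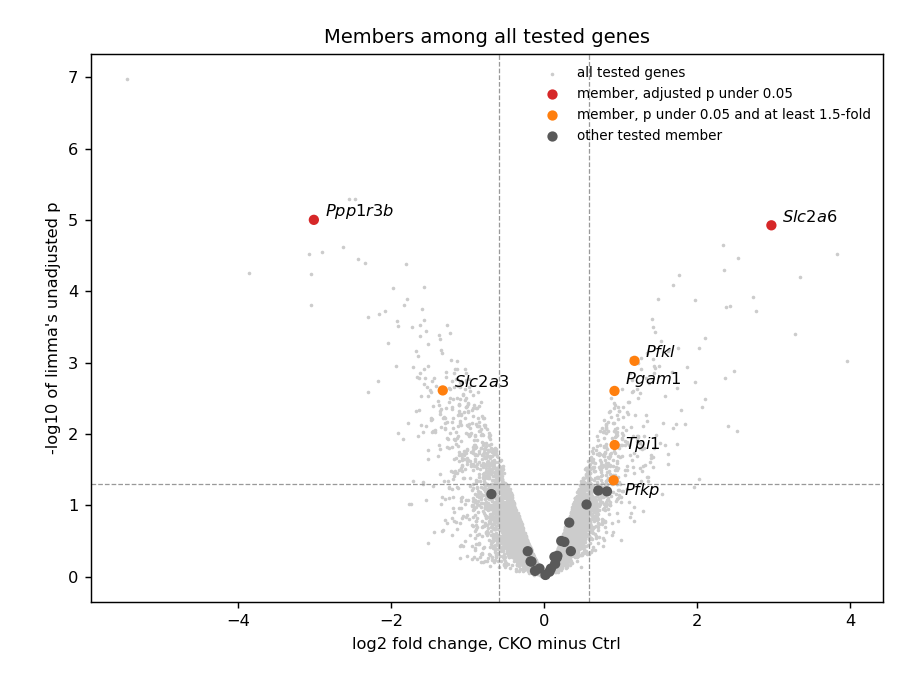
Unadjusted p of limma (as -log10) against log2 fold change (CKO minus Ctrl) for all 9593 tested genes (grey) and the 27 tested members. Red members pass an adjusted p of 0.05 and orange members meet the study's thresholds, which are drawn as dashed lines. Slc2a6 and Ppp1r3b stand near the edge of the cloud, and the 20 members short of the thresholds lie between -0.69 and 0.82.

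Among regulators of glucose use, Hif1a, the oxygen-regulated subunit of HIF-1, was the gene that stood out. It gave 154, 97.3 and 143 in Ctrl and 353, 308 and 316 in CKO cells, with no overlap. The log2 change was 1.34 (SE 0.25), with an adjusted p of 0.112 in limma and 0.0300 with the replicate block. A second Hif1a probe was above background on 2 arrays and gave 0.04 (SE 0.26). Txnip, an inhibitor of glucose uptake, gave 389, 406 and 565 in Ctrl and 249, 228 and 346 in CKO cells (log2 -0.73, SE 0.27, unadjusted p = 0.0258). Myc gave 79.1, 119 and 61.2 in Ctrl and 134, 128 and 111 in CKO cells, which overlapped (log2 0.57, SE 0.29, unadjusted p = 0.0816). Of the 24 listed regulators 18 were tested, and their median log2 change was -0.10.

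Over 8 such lists of neighbouring pathways, 98 of 150 genes were tested. The study's thresholds were met by 2 higher and 4 lower genes, no larger a share than the 3.05% and 4.36% of all tested genes, and 0 passed an adjusted p of 0.05 in limma, where 7 had an unadjusted p under 0.05. Beside Hif1a, the higher gene was G6pc3, a glucose-6-phosphatase, at log2 0.86 (SE 0.34). Rpe, an epimerase of the pentose phosphate pathway, was lower at -1.02 (SE 0.26). The other lower genes were Txnip, Mxi1 and Plin2, the last tested only through its Ctrl arrays. With the replicate block 1 gene was higher (Hif1a) and 1 lower (Hk3, adjusted p = 0.0398). Hk3, a hexokinase of myeloid cells, had intensities of 161, 16.7 and 174 in Ctrl and 49.3, 8.88 and 63.9 in CKO cells, lowest in replicate 2 like the summed myeloid intensity, whose part in this value was not tested.

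**Figure D5:**
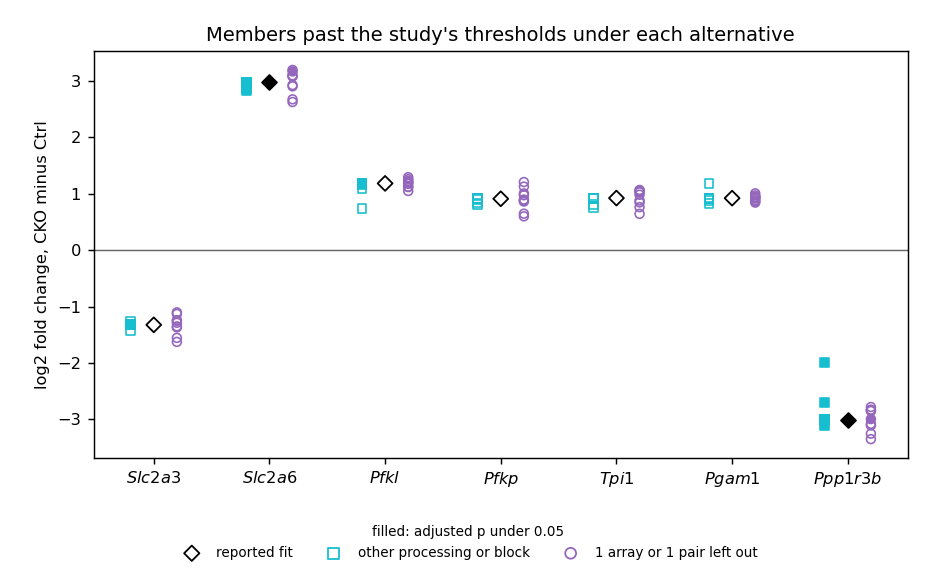
log2 fold change (CKO minus Ctrl) of the 7 members that met the study's thresholds, in the reported fit (black), under other processing or a block (cyan) and with 1 array or 1 pair left out (violet). Filled symbols have an adjusted p under 0.05. No gene crosses 0 in any of the 19 alternatives, and the fold of Slc2a6 stays between 6.15 and 9.12.

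Other measured differences between the groups stood beside these results. Of the 11 tested T cell and Treg markers, 3 were lower at the study's thresholds (Lat, Ctla4 and Ikzf2), against 4.36% of all tested genes. Estimates were lower in CKO cells for 9 and higher for 2, with a median log2 change of -0.55. Their summed intensity was 34529, 26370 and 26830 in Ctrl and 21012, 20008 and 15868 in CKO cells. The 16 genes of early T cell stimulation with a probe had median intensities of 1422, 1758 and 1132 in Ctrl and 1398, 2309 and 773 in CKO cells. Of these, 15 were above background on all 6 arrays and Nr4a1 on none, and 0 met the thresholds. Il2 gave 6980 to 13107 and Cd40lg 31.5 to 80.8 over the arrays. Hk1 and Pfkl lie on the chromosome of Prdm1, with 33 and 91 of its 469 tested genes between, and Pkm and Pfkfb4 on that of Thy1, with 112 and 334 of 548 between. The part of stimulation, of T cell marker level or of alleles linked to either locus in these values was not tested. Hk2, Gpi1, Eno1 and G6pdx had no probe of that name. Probes named for their close copies Eno1b and G6pd2 had log2 changes of -0.22 (SE 0.31) and 0.16 (SE 0.53) and are not counted as members.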

How the data were processed

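The genes and lists were chosen with earlier results of these data known. The authors amplified RNA of sorted cells, exported probe intensities from Genome Studio and quantile normalized them. The deposited intensity values are linear and background-subtracted, and 35.4% to 36.0% per array lie below 0. Slides (replicate 1 on one, replicates 2 and 3 on the other) had been normalized separately, so all 6 arrays were quantile normalized together. Values under an array's background (the 95th percentile of 1504 receptor probes) were raised to it before log2. Probes with 1 symbol in GEO's annotation that were above background on at least 2 arrays were kept (34885 of 45281 probes have 1 symbol, 18 several and 10378 none, and 34807 symbols were checked through RefSeq identifiers), and the brightest probe stood for a gene. The detection p-values of the methods were not used here, nor were Teff arrays.

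The comparison used limma 3.58.1 under R 4.3.3 (lmFit and eBayes, no block, since the methods name none), with Benjamini-Hochberg adjustment over 9593 genes. "Rose" and "fell" mean an adjusted p under 0.05. Numbers pair the arrays: replicates 2 and 3 share a day in the labels, replicate 1 shares a slide, and deviations from group means correlated at 0.51, 0.49 and 0.56 over genes within a number. The replicates are biological per the methods, but p-values measure only the spread between these arrays. All 38 members were named, and from each neighbouring list up to 4 genes at the study's thresholds, with Hif1a, Myc, Prdm1 and Foxp3. Hk3, marker genes and the close copies were named after their values were seen. Alternatives were other normalization, background, filters, probes, blocks and left-out arrays.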

Additional observations from a re-analysis of the deposited data

How the results depend on the processing

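The count of members at an adjusted p under 0.05, 2 in the reported fit, was 4 with no filter on dim probes, where floored genes of zero variance enter the fit, and 4 with the replicate block. The count was 3 with an intensity trend and robust variance in limma, where Pfkl also passed (adjusted p = 0.0397). It lay between 0 and 2 when 1 array or 1 pair was left out, and was 2 only without Ctrl replicate 2. Fewer arrays enter those fits, and the cause was not tested otherwise. The median log2 fold change of the members, 0.16 in the reported fit, was 0.079 with median scaling, where that of all tested genes was -0.077, and between 0.12 and 0.28 with an array or pair left out. The count at the study's thresholds, 7 in the reported fit, lay between 6 and 10 over all 19 alternatives, with 10 under the block and with no filter. Slc2a3, Slc2a6, Pfkl, Tpi1, Pgam1 and Ppp1r3b met those thresholds in 19 of 19 alternatives and Pfkp in 11. Slc2a6 and Ppp1r3b passed an adjusted p of 0.05 in 11 of 19, over ranges of 2.06e-05 to 0.425 and 2.05e-05 to 0.425, Pfkl in 3 (0.0289 to 0.585) and Slc2a3 in 2 (0.0295 to 0.672). The replicate block added Slc2a3 and Pfkl and changed no other call of a member. No called change turned its direction. Genes near background, among them Slc2a8, Pfkfb3, Pfkfb4 and Aldoc, are limited by signal over background, and 11 members gave no test at all.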
